A study of Mus musculus with 12 samples.

Results

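The genes described here code for proteins of the secondary (specific) and tertiary (gelatinase) granules of neutrophils. They are Ltf, Ngp, Lcn2, Hp, Olfm4, Cd177, Mmp8, Mmp9, Lyz2 and Chil3, 10 of the 24411 rows of the deposited table, and were chosen by symbol. RNA was sequenced from mouse leukaemia cells grown from BALB/c bone marrow that had been given mutant CSF3R and mutant CEBPA by retrovirus, and all 4 groups carry both mutant genes. The groups were kept for 24 h with the solvent DMSO, with 50 nM ruxolitinib, which blocks the JAK1 and JAK2 kinases, with 2 nM GSK-LSD1, which blocks the demethylase LSD1, or with both drugs at those doses, called the combination. Each group had 3 libraries. The labels do not say whether these came from separate cultures, so p-values measure the spread between these libraries, which may be technical.

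Neutrophils fill their granules in sequence as they mature. Primary granules with myeloperoxidase and serine proteases are made at the promyelocyte stage, secondary granules with lactoferrin and collagenase at the myelocyte and metamyelocyte stages, and tertiary granules with gelatinase later still. The factor C/EBP epsilon drives many secondary granule genes, CSF3R signals through JAK kinases and STAT3, and LSD1 acts with the repressors GFI1 and GFI1B in myeloid cells.

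The values are normalised read counts. If the smallest value above 0 in a library is taken as 1 read, 1 unit is close to 1 read. The libraries then summed to between 8260995 and 8528400 reads. Of 6 markers of myeloid progenitors all were present, with means from 37.37 (Kit) to 9099 (Mpo) and 9564 (Cebpa). Cebpa and Csf3r are among the 6, although mutant CEBPA and CSF3R had been given to the cells. The basophil and mast cell gene Cpa3 had a mean of 12044, while 4 T cell and 4 B cell markers all had means under 10. A pair of libraries lay apart from the other 10 on the second principal component, at -19.67 (ruxolitinib replicate 2) and -17.27 (combination replicate 3) where the others ran from -4.641 to 9.725. Counts of genes were repeated without each of these libraries and without both. Of the 10 genes, Ltf (mean 10.21 over the 12 libraries) and Olfm4 (12.44) reached the minimum mean of 10 only through the combination, having means of 6.892 and 9.541 in the other libraries. Their tests against the combination are therefore described one by one, and counts are given over the other 8 genes.

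The promoters of these genes are shown because 8 of the 8 genes counted rose after the combination against DMSO. Of all genes 20.5% did, and Mmp9 passed only narrowly. Ltf and Olfm4, which reached the minimum mean only through the combination, are included in the search. RefSeq promoter sequences (build GRCm38.p6) were found for 8 of the 10, not for Hp and Mmp9. The 250 bases before each RefSeq start were searched on both strands for the letters TTGCNNAA (a C/EBP motif), GAGGAAG (a PU.1 motif), TTCNNNGAA (a STAT motif) and AATCANNGC (a GFI1 motif), and none of the 9 matches overlapped another. The 5 sequences below, with matches in capitals, are the parts that also lie before the GENCODE start of the gene, 5′ to 3′ on the gene's strand. Mmp8 (chr9:7558179-7558428, plus strand) is the gene with the strongest response to GSK-LSD1, Ngp (chr9:110419558-110419746, plus), Ltf (chr9:111019042-111019270, plus) and Chil3 (chr3:106167565-106167814, minus) are those with the largest values after ruxolitinib, and Lyz2 (chr10:117282322-117282522, minus) stood second to Mmp8 in the test of additivity.
Mmp8: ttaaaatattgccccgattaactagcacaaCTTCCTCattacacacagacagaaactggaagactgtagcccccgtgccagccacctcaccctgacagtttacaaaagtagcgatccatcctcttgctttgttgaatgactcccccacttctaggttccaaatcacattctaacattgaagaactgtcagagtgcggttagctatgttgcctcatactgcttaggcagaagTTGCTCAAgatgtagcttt
Ngp: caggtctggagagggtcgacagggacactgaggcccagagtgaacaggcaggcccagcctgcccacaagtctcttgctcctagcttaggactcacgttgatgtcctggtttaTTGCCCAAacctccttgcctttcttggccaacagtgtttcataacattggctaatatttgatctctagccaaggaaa
Ltf: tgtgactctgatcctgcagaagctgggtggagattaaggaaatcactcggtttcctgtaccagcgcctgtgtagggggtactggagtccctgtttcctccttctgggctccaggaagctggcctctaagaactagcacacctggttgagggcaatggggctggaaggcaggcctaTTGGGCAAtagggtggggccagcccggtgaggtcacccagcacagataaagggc
Chil3: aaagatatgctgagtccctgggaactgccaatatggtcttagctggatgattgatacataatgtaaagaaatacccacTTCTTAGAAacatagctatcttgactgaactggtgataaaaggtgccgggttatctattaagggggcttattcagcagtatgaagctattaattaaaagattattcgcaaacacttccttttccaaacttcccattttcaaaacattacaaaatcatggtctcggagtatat
Lyz2: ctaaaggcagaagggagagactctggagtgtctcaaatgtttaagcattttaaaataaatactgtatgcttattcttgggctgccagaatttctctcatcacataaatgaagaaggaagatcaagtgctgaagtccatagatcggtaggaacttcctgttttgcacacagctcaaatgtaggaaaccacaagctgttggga
In Mmp8 the reverse complement of the PU.1 letters lies 220 to 214 bases and the C/EBP letters 19 to 12 bases before the start. Ngp holds C/EBP letters at 138 to 131 bases, and a second match at 11 to 4 bases lies beyond the printed part. Ltf has them at 75 to 68 bases, and Chil3 has the STAT letters at 172 to 164 bases. The Lyz2 window holds none of the 4 motifs. In all, the C/EBP letters were in 4 of 8 windows (Lcn2 is the other gene), against 9.56% of 32851 promoter windows of that length. The PU.1 letters were in 3 of 8 (Lcn2, Mmp8 and Olfm4; 10.6% of all), the STAT letters in 1 of 8 (7.02%) and the GFI1 letters in 0 of 8 (2.87%). The RefSeq windows of Lcn2 and Olfm4 lie wholly past the GENCODE start, inside the annotated genes. Over the 11249 windows of tested genes the shares were 7.53% for C/EBP, 10.9% for PU.1, 6.16% for STAT and 3.05% for GFI1. A match is a description of the letters, not evidence of binding.

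After the combination the granule genes were higher than after DMSO. Of the 8 genes, 8 rose, by log2 values of 0.73 to 1.95 with a median of 1.22, whereas the median of all 11484 genes tested was -0.01, and 20.5% of them rose and 21.8% fell. Without combination replicate 3, or without both libraries that lay apart, 7 of the 8 rose and Mmp9 did not pass. After ruxolitinib 3 of the 8 rose (Ngp, Chil3 and Cd177; 1.00% of all genes rose and 0.627% fell), and after GSK-LSD1 4 of the 8 did (Mmp8, Hp, Cd177 and Lyz2; 17.0% of all genes rose and 15.5% fell). None of the 8 fell in these comparisons as fitted. With quantile normalisation Ngp fell after GSK-LSD1. Without ruxolitinib replicate 2, 2 of the 8 rose after ruxolitinib, Cd177 not among them. The 3 comparisons share the DMSO libraries. In bulk RNA, more cells that make a granule protein and more RNA per cell cannot be told apart.

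**Figure D1:**
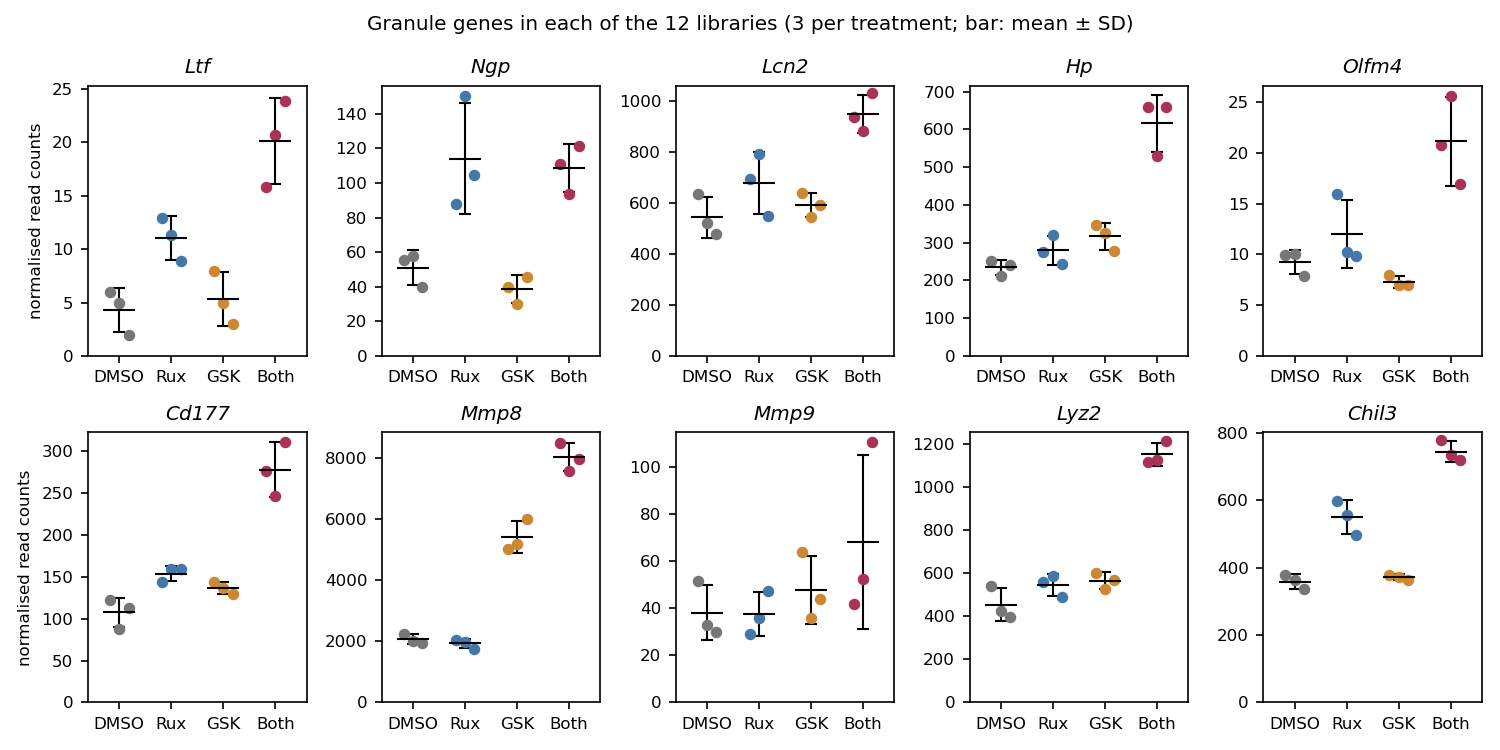
Normalised read counts of each gene (vertical axes, each from 0) in the 3 libraries of each treatment (Rux, ruxolitinib; GSK, GSK-LSD1; Both, combination), with the mean ± SD as bars. The 3 combination libraries lie above all others except for Ngp, where ruxolitinib libraries reach as high, and Mmp9, where a single combination library stands out. Ltf and Olfm4 reached the minimum mean only through the combination. No share over all genes was computed for this order, so it is a description of each panel.

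The iron-binding and antimicrobial proteins of the secondary granule are described first. Ltf (lactoferrin; GRCm38 chromosome 9, 111019271 to 111042767, plus strand), which binds iron, was at 5.958, 5.001 and 1.98 after DMSO, 12.93, 11.3 and 8.894 after ruxolitinib, 7.993, 4.977 and 2.992 after GSK-LSD1, and 15.87, 20.72 and 23.87 after the combination. The combination libraries were all above the ruxolitinib libraries, and those above all DMSO and GSK-LSD1 libraries, but the level was a few reads. Only the combination passed the test against DMSO (log2 fold change 2.06 ± 0.40 SE, adjusted p = 0.000267). The value after ruxolitinib was 1.26 ± 0.40 (adjusted p = 0.106).

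Ngp (neutrophilic granule protein, related to cystatins and cathelicidins; chromosome 9, 110419747 to 110423012, plus strand) was at 55.61, 58.01 and 39.61 after DMSO, 87.55, 150 and 104.7 after ruxolitinib, 39.96, 29.86 and 45.87 after GSK-LSD1, and 111.1, 93.72 and 121.3 after the combination. Both groups with ruxolitinib were above both groups without it, with no overlap. Ngp rose 2.23-fold after ruxolitinib (log2 1.13 ± 0.20, adjusted p = 0.00722; 0.96 and adjusted p = 0.0567 without DMSO replicate 3) and by 1.09 ± 0.20 after the combination (adjusted p = 0.00016). After GSK-LSD1 it was at -0.40 ± 0.20 (adjusted p = 0.134; -0.62 and adjusted p = 0.0204 with quantile normalisation). Adding GSK-LSD1 to ruxolitinib gave -0.04 ± 0.20 (adjusted p = 0.902), so the combination was not told apart from ruxolitinib here.

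Lcn2 (lipocalin 2, which binds bacterial siderophores; chromosome 2, 32384633 to 32388252, minus strand) was at 633.6, 519.1 and 478.3 after DMSO, 693.4, 791.1 and 548.4 after ruxolitinib, 639.4, 545.4 and 589.4 after GSK-LSD1, and 934.3, 881.9 and 1029 after the combination. The 3 combination libraries were above all others, and the other groups overlapped. Lcn2 rose by 0.81 ± 0.11 on the log2 scale after the combination (adjusted p = 5.73e-06), and was at 0.31 ± 0.11 after ruxolitinib (adjusted p = 0.152) and 0.13 ± 0.11 after GSK-LSD1 (adjusted p = 0.404). Without ruxolitinib replicate 3, the value after ruxolitinib was 0.46 and passed (adjusted p = 0.0292).

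Hp (haptoglobin, which binds free haemoglobin; chromosome 8, 109575128 to 109579172, minus strand) was at 250.3, 212.1 and 241.6 after DMSO, 274.6, 320.6 and 243.1 after ruxolitinib, 346.7, 325.5 and 278.2 after GSK-LSD1, and 658.6, 529.7 and 660.3 after the combination. Here the GSK-LSD1 libraries stood above the DMSO libraries, while those of ruxolitinib overlapped them. Hp rose by 0.43 ± 0.11 after GSK-LSD1 (adjusted p = 0.00511) and by 1.39 ± 0.11, or 2.63-fold, after the combination (adjusted p = 2.84e-09). The value after ruxolitinib was 0.25 ± 0.11 (adjusted p = 0.255).

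Olfm4 (olfactomedin 4, found in the specific granules of some neutrophils; chromosome 14, 79984081 to 80023139, plus strand) overlaps the RNA gene Gm6999 on the same strand. It was at 9.931, 10 and 7.922 after DMSO, 15.92, 10.27 and 9.882 after ruxolitinib, 7.993, 6.967 and 6.981 after GSK-LSD1, and 20.83, 25.65 and 16.91 after the combination. Each combination library was above every other library. The combination passed against DMSO at 1.09 ± 0.30 (adjusted p = 0.00626; 0.72 and adjusted p = 0.0646 with quantile normalisation). The values after ruxolitinib and GSK-LSD1 were 0.32 ± 0.30 and -0.30 ± 0.30 (adjusted p of 0.622 and 0.479).

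Cd177, a surface protein of neutrophils (chromosome 7, 24743983 to 24760311, minus strand), was at 122.1, 88.02 and 112.9 after DMSO, 143.3, 159.3 and 159.1 after ruxolitinib, 143.9, 136.4 and 129.6 after GSK-LSD1, and 276.7, 246.6 and 311.3 after the combination. It was the gene of the 8 that passed after each drug alone, at 0.52 ± 0.12 after ruxolitinib (adjusted p = 0.032) and 0.35 ± 0.12 after GSK-LSD1 (adjusted p = 0.0308), and it rose by 1.37 ± 0.12 after the combination (adjusted p = 1.6e-08). Both single-drug calls depended on single libraries. After ruxolitinib the adjusted p was 0.16 with DMSO replicate 2 left out, 0.0893 with DMSO replicate 3, 0.109 with ruxolitinib replicate 2 and 0.0672 with ruxolitinib replicate 3 left out. It was 0.0692 with no filter on low values, 0.0617 with quantile normalisation and 0.0707 with only the groups compared. After GSK-LSD1 it was 0.201 with DMSO replicate 2, 0.0983 with GSK-LSD1 replicate 1 and 0.0737 with GSK-LSD1 replicate 2 left out, 0.0522 with no filter and 0.135 with quantile normalisation.

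The metalloproteinases of the granules cut the extracellular matrix. Mmp8 (neutrophil collagenase, of the secondary granule; chromosome 9, 7558456 to 7568485, plus strand) was at 2252, 2018 and 1953 after DMSO, 2040, 1991 and 1764 after ruxolitinib, 5016, 5192 and 6006 after GSK-LSD1, and 8499, 7585 and 7974 after the combination. Ruxolitinib libraries overlapped DMSO libraries, GSK-LSD1 libraries were above both, and combination libraries were above all. Mmp8 rose 2.61-fold after GSK-LSD1 (log2 1.38 ± 0.07, adjusted p = 8.41e-12) and was at -0.10 ± 0.07 after ruxolitinib (adjusted p = 0.493). Adding ruxolitinib to GSK-LSD1 raised it again 1.48-fold (0.57 ± 0.07, adjusted p = 0.000113).

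Mmp9 (gelatinase B, the defining enzyme of tertiary granules; chromosome 2, 164940780 to 164955850, plus strand) was at 51.64, 33.01 and 29.71 after DMSO, 28.85, 35.96 and 47.43 after ruxolitinib, 63.94, 35.83 and 43.88 after GSK-LSD1, and 41.66, 52.28 and 110.4 after the combination. All 4 groups overlapped, and the highest library was combination replicate 3, which also lay apart on the second component. The combination passed narrowly against DMSO (0.73 ± 0.29, adjusted p = 0.0484), and the test for any difference among the 4 treatments did not pass (adjusted p = 0.113; 42.8% of all genes passed). Without combination replicate 3 the value was 0.33 (adjusted p = 0.335). The call was also gone with DMSO replicate 2 (0.135) or 3 (0.18), ruxolitinib replicate 1 (0.0503), or GSK-LSD1 replicate 2 (0.05 after rounding) or 3 (0.0593) left out, with no filter (0.109), with quantile normalisation (0.208) and with only the groups compared (0.0553).

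Lysozyme and the chitinase-like protein Chil3 are made by neutrophils and by monocytes and macrophages. Lyz2 (lysozyme, which cuts bacterial cell walls; chromosome 10, 117277331 to 117282321, minus strand) was at 542.2, 426.1 and 396.1 after DMSO, 558.1, 588.7 and 490.1 after ruxolitinib, 602.4, 525.5 and 568.4 after GSK-LSD1, and 1117, 1127 and 1212 after the combination. The first 3 groups overlapped and the combination stood clear of them. Lyz2 rose by 0.32 ± 0.10 after GSK-LSD1 (adjusted p = 0.0123) and by 1.35 ± 0.10, or 2.53-fold, after the combination (adjusted p = 4.73e-10), and was at 0.27 ± 0.10 after ruxolitinib (adjusted p = 0.147). Leaving out DMSO replicate 2, DMSO replicate 3 or GSK-LSD1 replicate 1 ended the call after GSK-LSD1, with adjusted p of 0.0603, 0.0996 and 0.0607. Without DMSO replicate 1 the value after ruxolitinib was 0.40 and passed (adjusted p = 0.0447). Its close copy Lyz1 was at 0 in 11 of the 12 libraries and at 0.9865 in the other.

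Chil3 (chromosome 3, 106147554 to 106167564, minus strand) was at 377.4, 362.1 and 335.7 after DMSO, 596.9, 555.8 and 496.1 after ruxolitinib, 378.7, 373.2 and 363 after GSK-LSD1, and 778.6, 733.9 and 720 after the combination. GSK-LSD1 libraries overlapped DMSO libraries, ruxolitinib libraries were above both, and combination libraries were higher again. Chil3 rose by 0.61 ± 0.08 after ruxolitinib (adjusted p = 0.000454) and by 1.05 ± 0.08 after the combination (adjusted p = 7.7e-10), and was at 0.05 ± 0.08 after GSK-LSD1 (adjusted p = 0.634). Adding GSK-LSD1 to ruxolitinib raised it by 0.44 ± 0.08 (adjusted p = 0.000158). The related gene Chil4 was at 0 in 11 libraries and at 1 in the other.

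**Figure D2:**
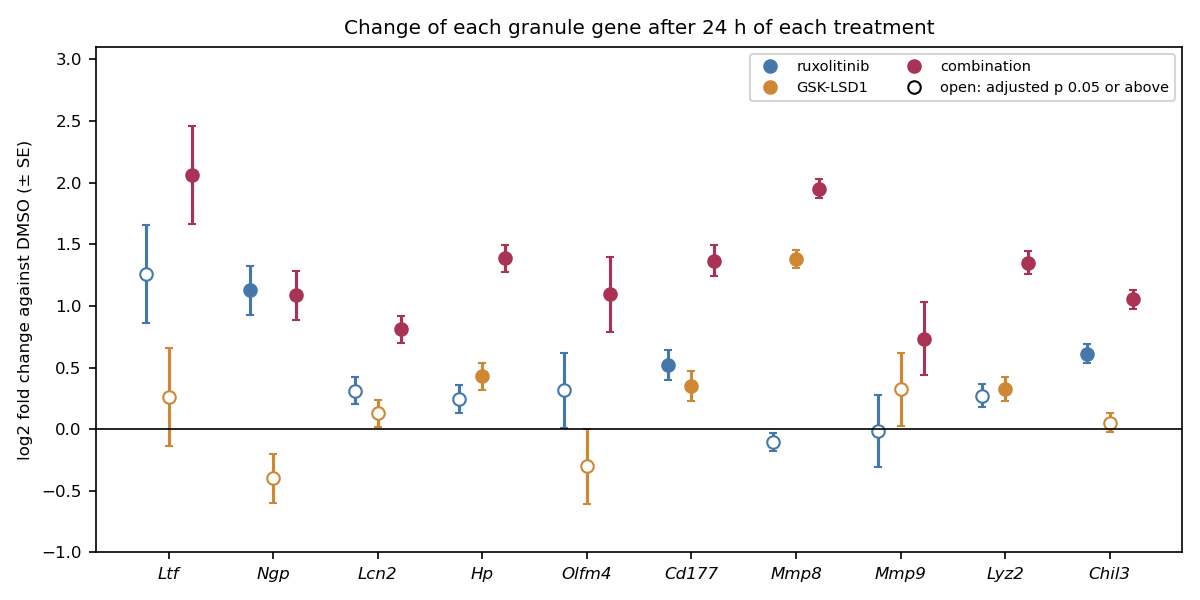
Log2 fold change against DMSO (vertical axis, ± SE from the limma fit) of each gene after ruxolitinib, GSK-LSD1 and the combination, with open circles where the adjusted p was 0.05 or above. Mmp8 is high with GSK-LSD1 and near 0 with ruxolitinib, and Ngp and Chil3 show the reverse order. The combination is the highest of the 3 except for Ngp, and Ltf and Olfm4 entered the test only through the combination.

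The single drugs were also compared with each other. GSK-LSD1 minus ruxolitinib was 1.48 ± 0.07 for Mmp8 (adjusted p = 2.11e-12), and -1.53 ± 0.20 for Ngp (adjusted p = 6.68e-06) and -0.56 ± 0.08 for Chil3 (adjusted p = 1.32e-05). So Mmp8 was higher with GSK-LSD1, and Ngp and Chil3 with ruxolitinib. The other 5 of the 8 genes did not pass, with values from -0.18 (Lcn2) to 0.34 (Mmp9), and 25.4% of all genes passed in either direction. Hp passed without both libraries that lay apart (0.29, adjusted p = 0.0332), and Lcn2 without ruxolitinib replicate 3 (-0.33, adjusted p = 0.0263). Ltf was at -0.99 ± 0.40 (adjusted p = 0.0704) and passed with quantile normalisation (-1.53, adjusted p = 0.012), without DMSO replicate 3 (0.0494) or without GSK-LSD1 replicate 1 (0.037). Olfm4 passed with quantile normalisation (-1, adjusted p = 0.0199).

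Each drug was then tested on top of the other. Adding ruxolitinib to GSK-LSD1 raised 7 of the 8 genes, against 1.05% of all genes, with a median log2 value of 0.98. Mmp9 at 0.41 ± 0.29 did not pass (adjusted p = 0.605). The largest rise among the 7 was that of Ngp at 1.48 ± 0.20 (adjusted p = 0.000138), followed by Lyz2 at 1.03 ± 0.10, Cd177 at 1.01 ± 0.12, Chil3 at 1.00 ± 0.08, Hp at 0.96 ± 0.11, Lcn2 at 0.68 ± 0.11 and Mmp8 at 0.57 ± 0.07. Chil3 had an adjusted p of 1.57e-07 there. Ltf (1.80 ± 0.40, adjusted p = 0.0177) and Olfm4 (1.40 ± 0.30, adjusted p = 0.0162) passed too. Ltf was lost without GSK-LSD1 replicate 2 (adjusted p = 0.0823) or 3 (0.121) or combination replicate 2 (0.0772) or 3 (0.0816), or without both libraries that lay apart (0.0514), and Olfm4 without GSK-LSD1 replicate 2 (0.0823) or 3 (0.0669) or combination replicate 1 (0.0641) or 2 (0.1).

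Adding GSK-LSD1 to ruxolitinib raised 6 of the 8 genes, against 16.0% of all genes. The order differed from that of the other drug, with Mmp8 first at 2.05 ± 0.07 (adjusted p = 9.78e-15), then Hp at 1.14 ± 0.11, Lyz2 at 1.08 ± 0.10, Cd177 at 0.85 ± 0.12, Lcn2 at 0.50 ± 0.11 and Chil3 at 0.44 ± 0.08. Ngp was near 0, as given above, and Mmp9 was at 0.75 ± 0.29 (adjusted p = 0.056; 0.93 and adjusted p = 0.0376 without ruxolitinib replicate 3, and 1.03 and adjusted p = 0.0155 without combination replicate 1). Ltf was at 0.81 ± 0.40 (adjusted p = 0.127). Olfm4 was at 0.78 ± 0.30 (adjusted p = 0.056), and passed without ruxolitinib replicate 1 (adjusted p = 0.0339) or combination replicate 3 (0.0483). It also passed with 5 instead of 1 added before the log2 (0.0432). With a trend with transcript GC content removed, both Mmp9 (0.76, adjusted p = 0.0315) and Olfm4 (adjusted p = 0.0461) passed.

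**Figure D3:**
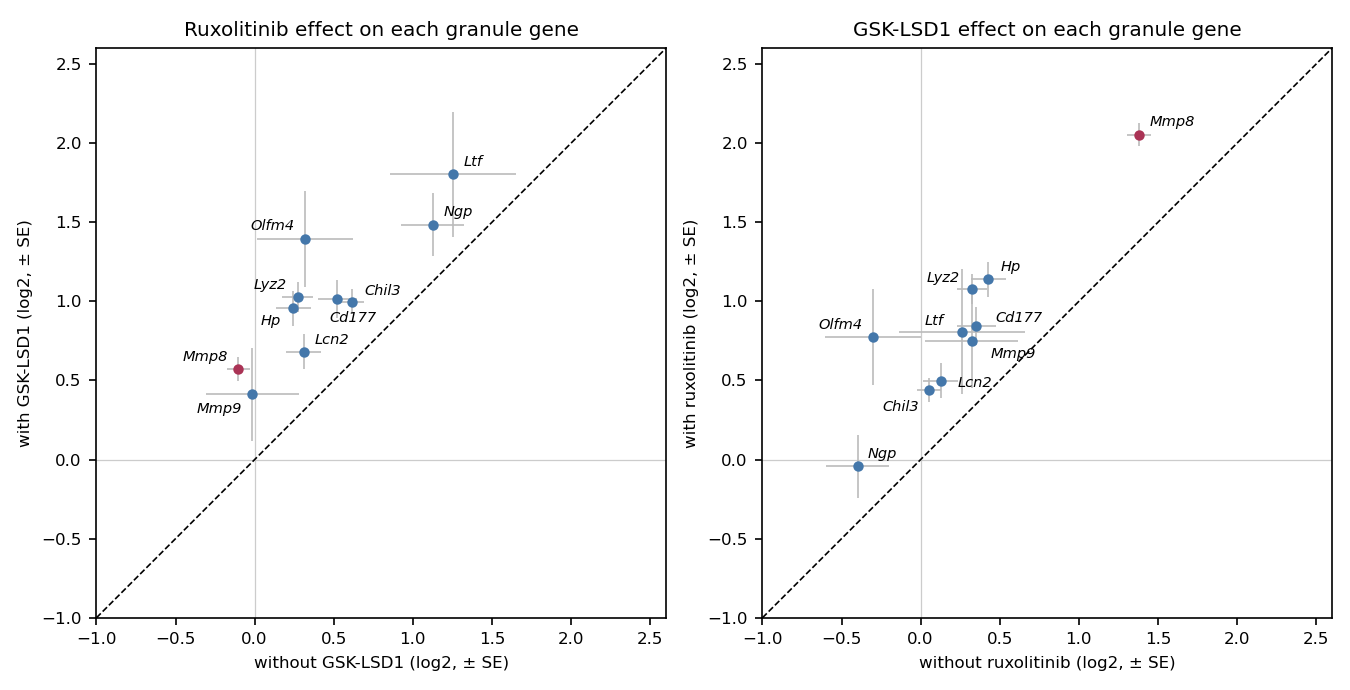
Effect of each drug on each gene without the other drug (horizontal axis) and with it (vertical axis), as log2 differences ± SE, with the dashed line where both are equal. All 10 genes lie above the line in both panels, and Mmp8 (red) is the gene that passed the test of this distance; the vertical distance to the line is the same interaction in both panels.

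Departure from additive drug effects was measured on the log2 scale as the combination minus the sum of both single-drug changes, so that 0 means that the fold changes multiply. The value was above 0 for 8 of the 8 genes, where 48.5% of all genes were above 0. It was also above 0 for Ltf and Olfm4, which entered the test through their combination values. Over the 8 genes the values ran from 0.36 (Ngp) to 0.76 (Lyz2) with a median of 0.46, and the median of all genes was -0.01. Genes that vary together are not independent cases, so this count is a description.

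Mmp8 was the only gene of the 11484 tested (0.00871%) with an adjusted p under 0.05, at 0.67 ± 0.11 (adjusted p = 0.0236). Its combination mean of 8019 ± 459 (SD, n = 3) was 1.6 times the 5034 that the product of the single-drug fold changes gives. Its adjusted p was 0.207 with DMSO replicate 1 left out, 0.0858 with DMSO replicate 2, 0.126 with ruxolitinib replicate 3, 0.115 with GSK-LSD1 replicate 1, 0.199 with GSK-LSD1 replicate 2 and 0.115 with combination replicate 1. The call was also lost without a filter on low values (0.216) and with quantile normalisation (0.0557), while the value stayed between 0.61 and 0.75 over 22 alternatives.

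Lyz2 had the second smallest p of all genes, at 0.76 ± 0.14 (adjusted p = 0.0793), and Hp the fifth smallest, at 0.71 ± 0.16 (adjusted p = 0.394). For Lyz2 the combination mean of 1152 compared with an expected 678.4, and for Hp 616.2 compared with 377.2. After ruxolitinib replicate 2 and combination replicate 3 were both left out, 3 genes of the whole table passed and all 3 were granule genes, namely Mmp8 (adjusted p = 0.000253), Lyz2 (0.0038) and Hp (0.0324). The same 3 were also the only genes to pass once a trend with transcript GC content was removed (adjusted p of 0.0119, 0.0462 and 0.0462). Lyz2 also passed without DMSO replicate 3 (0.0223) or ruxolitinib replicate 2 (0.0261).

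For the other genes the departure did not pass over all genes. Chil3 was at 0.39 ± 0.11, Cd177 at 0.49 ± 0.17, Lcn2 at 0.37 ± 0.16, Olfm4 at 1.08 ± 0.43, Ltf at 0.55 ± 0.56, Mmp9 at 0.43 ± 0.41 and Ngp at 0.36 ± 0.28. At an unadjusted p under 0.05, 6 of the 8 genes were above additivity, against 2.07% of all genes (4.65% in either direction); Mmp9 and Ngp were the other 2. Over the alternatives, the lowest value was 0.00455 for Mmp9, 0.19 for Ngp and 0.23 for Lcn2, so none changed sign.

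On the unlogged scale, additive effects predict the sum of both single-drug changes in normalised read counts. The combination mean exceeded that sum in each of the 8 genes, and by more than 2 standard errors except in Mmp9 and Ngp. The excess was computed for the granule genes only. No share over all genes can be set beside it, so it is a description of each gene. The excess was 2757 ± 423 (SE) for Mmp8, 496 ± 65.2 for Lyz2, 255 ± 54 for Hp, 181 ± 36.6 for Chil3 and 95.4 ± 22.3 for Cd177. For Ngp it was 7.12 ± 21.6 and for Mmp9 20.9 ± 24.5. No test was made on this scale.

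**Figure D4:**
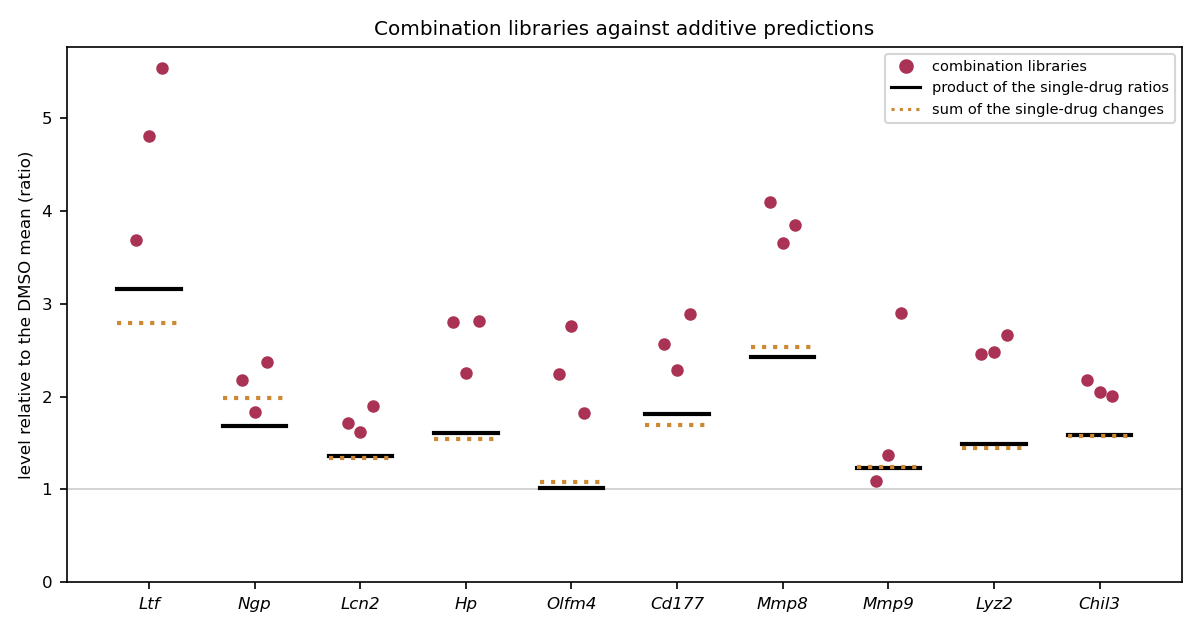
Level of each gene in the 3 combination libraries as a ratio to the DMSO mean (points), with the level that the product of the single-drug ratios predicts (black line) and the level that the sum of the single-drug changes predicts (dotted line). All 3 points lie above both lines except for Ngp, where 1 point falls under the dotted line, and Mmp9, where 1 point lies under both.

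Over 11053 genes, which are no independent replicates, the log2 change after ruxolitinib went with the GC content of the transcript (Spearman's rho = 0.42), and so did that of adding ruxolitinib to GSK-LSD1 (rho = 0.271). Transcripts of the 10 genes had 43.4% (Mmp8) to 56.2% (Hp) GC. With the trend removed, 3 of the 8 genes rose after ruxolitinib (1.06% of all genes), 4 after GSK-LSD1 (18.8%) and 8 after the combination (22.3%). These are the same numbers of the 8 as without the correction. Adding GSK-LSD1 to ruxolitinib raised 7 of the 8 (18.9% of all genes), against 6 without the correction, and Mmp9 was the addition. Adding ruxolitinib to GSK-LSD1 raised 7 (1.56%), as without it.

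Levels could be ordered between genes per kilobase of annotated exon. After DMSO, Mmp8 led with 855 ± 65 normalised read counts per kilobase (SD, n = 3), followed by Lyz2 at 346 ± 58.6, Chil3 at 220 ± 12.9, Lcn2 at 207 ± 30.7 and Hp at 146 ± 12.5. Ngp at 41.8 ± 8.19 and Cd177 at 37.9 ± 6.21 came next, then Mmp9 at 10.8 ± 3.34, Olfm4 at 3.13 ± 0.399 and Ltf at 1.25 ± 0.602. Chil3 and Lcn2, and Ngp and Cd177, differed by less than their spread. After the combination Mmp8 was at 3307 ± 189 and Lyz2 at 875 ± 39.9, while Hp at 384 ± 46.6 and Lcn2 at 362 ± 28.5 differed by less than their spread.

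The 10 genes did not all vary alike. Over the 12 libraries the log2 values of Hp and Lyz2 had a Pearson r of 0.965, Cd177 and Lyz2 one of 0.947, and Ltf and Chil3 one of 0.927. Mmp8, which rose after GSK-LSD1, and Ngp, which rose after ruxolitinib, had an r of 0.0106. These r values describe 12 libraries in 4 groups and carry no test. The 5 other genes with a mean of at least 100 whose log2 values most resembled the mean pattern of the 10 were C1rl (r = 0.97), Tifab (0.969), Tnfrsf21 (0.959), F10 (0.959) and Lbp (0.959), out of 8424 candidates.

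Other granule genes gave the context. For the lists that follow, the shares of all genes were 1.00% risen and 0.627% fallen after ruxolitinib. They were 17.0% risen and 15.5% fallen after GSK-LSD1, and 20.5% risen and 21.8% fallen after the combination. Of 14 further genes of secondary and tertiary granules 7 were tested, and after the combination 5 rose and 0 fell, with a median of 0.84. Tcn2 (transcobalamin, which carries vitamin B12) rose from 333.8 ± 14.5 to 638.2 ± 15.7 (log2 0.93 ± 0.07), Ceacam1 (an adhesion molecule) from 55.7 ± 1.94 to 118.9 ± 3.06 (1.08 ± 0.13) and Slc11a1 (a metal transporter of phagocytic vesicles) from 21.54 ± 4.41 to 59.8 ± 7.17 (1.44 ± 0.20). These 3 were at -0.06, -0.03 and 0.07 in the interaction. Of the 7, 0 passed in the interaction (1 at an unadjusted p under 0.05, limma). Camp, the cathelicidin of secondary granules, was not tested, with a mean of 0.5797 over all libraries; it was singled out after its values were seen.

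Of 10 primary granule genes 9 were tested, and 6 rose after ruxolitinib, while after GSK-LSD1 3 rose and 3 fell, and after the combination 4 rose. After ruxolitinib 4 rose without ruxolitinib replicate 2, and 7 without combination replicate 3 or without both. Without both, 4 rose after GSK-LSD1 and 5 after the combination. Mpo (myeloperoxidase) was at 6565 ± 169 after DMSO, 10321 ± 1769 after ruxolitinib, 7201 ± 184 after GSK-LSD1 and 12307 ± 519 after the combination. Gstm1 (a glutathione transferase) had log2 values of 0.56 ± 0.09 after ruxolitinib and 0.82 ± 0.09 after the combination, and Prss57 (a serine protease) 0.39 ± 0.09 and 0.42 ± 0.09. For Prss57 the adjusted p after ruxolitinib was 0.136 with DMSO replicate 2 left out, 0.126 with DMSO replicate 3, 0.0624 with ruxolitinib replicate 1 and 0.104 with ruxolitinib replicate 2. Of the 9, 0 passed in the interaction (1 at an unadjusted p under 0.05, limma).

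Among 9 transcription factors of granule genes 0 passed after ruxolitinib (1 at an unadjusted p under 0.05, limma), 3 rose after GSK-LSD1 and 5 rose after the combination. Cebpe, which codes for C/EBP epsilon, was at 146.2 ± 15 after DMSO, 194.3 ± 28.5 after ruxolitinib, 181.8 ± 17 after GSK-LSD1 and 315.8 ± 26.2 after the combination (log2 1.11 ± 0.12, adjusted p = 1.49e-07). Its departure from additivity was 0.39 ± 0.16 and did not pass. Cebpe is among the 3 that rose after GSK-LSD1 (0.31 ± 0.12, adjusted p = 0.0407), but that call was fragile. Dropping DMSO replicate 1 or 2 raised the adjusted p to 0.146 or 0.122. Dropping GSK-LSD1 replicate 1 or 3 raised it to 0.0702 or 0.181. Quantile normalisation (0.0873) and keeping genes of low value (0.0661) ended the call as well. Without combination replicate 3 Cebpe rose after ruxolitinib (adjusted p = 0.0355), so that 1 of the 9 passed. Gfi1, a repressor of myeloid genes, rose by 1.86 ± 0.12 after GSK-LSD1 and 2.13 ± 0.12 after the combination. Spi1, which codes for PU.1, rose by 0.47 ± 0.10 after the combination. After GSK-LSD1 Spi1 passed without ruxolitinib replicate 2 (adjusted p = 0.0233), without combination replicate 3 (0.0347) and without both (0.00115), and 4 of the 9 rose in each case.

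Of 11 inhibitors, partners and receptors of the granule proteins 10 were tested, and 0 passed after ruxolitinib (1 at an unadjusted p under 0.05, limma), 6 rose after GSK-LSD1 and 7 after the combination. Itgam, the integrin chain that pairs with Itgb2, rose from 317.6 ± 29.3 to 458.7 ± 2.52 after GSK-LSD1 and 675.3 ± 62.5 after the combination. Lrp1, a scavenger receptor for proteases and lactoferrin, rose from 105.5 ± 16.8 to 204.7 ± 16.8 and 220.7 ± 6.11. Serpinb1a, an inhibitor of neutrophil serine proteases, rose from 2587 ± 54.7 to 3455 ± 93 and 3496 ± 203.

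Of 10 genes of mature neutrophils 8 were tested, and 7 rose after the combination and 6 after GSK-LSD1. Adding ruxolitinib to GSK-LSD1 raised 3 of the 8, where 1.05% of all genes rose. In the lists above it raised 6 of 9 primary granule genes and 3 of 7 further secondary and tertiary granule genes. It also raised 1 of 9 transcription factors and 2 of 10 inhibitors, partners and receptors. S100a8 and S100a9, the calprotectin subunits, rose after the combination by 1.04 ± 0.09 and 1.18 ± 0.10, with interaction values of 0.48 ± 0.12 and 0.52 ± 0.14 that did not pass. Of the 8 mature neutrophil genes, 0 passed in the interaction. At an unadjusted p under 0.05 (limma) there were 4, against 4.65% of all genes. The interaction was above 0 in 7 of the 8, with a median of 0.35, so values above additivity were not particular to the 10 granule genes.

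Markers of other cells also moved with the treatments. The shares of all genes given for the gene lists above hold for these counts too. The summed level of 10 monocyte and macrophage markers was 733.2 to 816.3 after DMSO, 697.6 to 736.2 after ruxolitinib, 1232 to 1313 after GSK-LSD1 and 1301 to 1355 after the combination. Of the 8 that were tested 6 rose after GSK-LSD1 (7 without ruxolitinib replicate 2 or without both libraries that lay apart) and 7 after the combination. Lyz2 and Chil3 are made by such cells too, and the part of these markers in their rise was not tested. The sum of 5 basophil and mast cell markers was 16038 to 17951 after DMSO, 19241 to 20541 after ruxolitinib, 18781 to 20340 after GSK-LSD1 and 17547 to 20381 after the combination. Of the 5, 1 rose after ruxolitinib (3 without combination replicate 3 or without both), 3 after GSK-LSD1 and 3 after the combination (4 without both). Erythroid markers had a sum of 177 to 202.6 after DMSO and 84.84 to 180 after the combination, where 3 of 3 tested fell, and Hbb-bt and Hba-a1 were at 0 in every library. Stroma markers had a sum of 289 to 324.8 after DMSO, 503.6 to 576.4 after GSK-LSD1 and 548.5 to 573.8 after the combination, and 2 of 2 tested rose after GSK-LSD1 and 1 after the combination. Their part in the changes of the granule genes was not tested. Of 5 eosinophil markers 3 had means under 10, Epx and Prg2 among them.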

How the data were processed

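The deposited values are a normalised signal per gene, per the file's values gene reads scaled by the authors with a single factor per library, plus 1e-05. STAR, DESeq2 and the builds mm10 and GRCm38 are named in the submitters' processing notes, without versions or roles; the annotation, counting program and strandedness are not given in the sources used here. After subtraction of 1e-05 every value was within 0.01 of a whole multiple of its library's step, the smallest value above 0. No count test was run, since it could not be checked that these multiples are the original reads. Log2 of the value plus 1 was fitted with limma 3.58.1 (R 4.3.3), with a mean per treatment, a variance trend and 8 residual degrees of freedom, on 11484 genes with a mean of at least 10. P-values were adjusted over all genes of a comparison (Benjamini-Hochberg, threshold 0.05). Intervals from replicates are SD or SE over 3 libraries. The step was tested on simulated data.

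The members, gene lists, motifs and the naming rule were chosen with earlier results of these data known. Of each list, the 3 tested genes with the smallest p for the combination are named, except where an item is not reported here. Positions and exon lengths are from GENCODE vM21 (GRCm38), by symbol. Reads of overlapping genes or near-identical copies cannot be told apart here. The alternatives were pseudocounts of 0.25 and 5, a minimum mean of 50 or none, quantile and upper-quartile scaling, removal of a GC trend, a replicate block, only the groups compared, and libraries left out.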

Additional observations from a re-analysis of the deposited data

Results flagged for a closer look

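In the main fit the effect of each drug on Mmp8 differed with the presence of the other drug. Ruxolitinib gave a log2 value of -0.10 ± 0.07 without GSK-LSD1 and 0.57 ± 0.07 with it, and GSK-LSD1 gave 1.38 ± 0.07 without ruxolitinib and 2.05 ± 0.07 with it. The interaction was 0.675 (SE 0.105, limma adjusted p = 0.0236), and it was flagged because this test of the difference passed. The call was lost in 9 of 22 alternatives, with a limma adjusted p of up to 0.216. The value stayed between 0.611 and 0.753.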

How the results depend on the processing

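Of 36 pairwise or interaction calls of the 10 genes, 27 passed under every alternative run. Among them were those of Chil3, Hp and Lcn2, those of Mmp8 against other treatments, and the rises of Lyz2, Cd177 and Ngp after the combination. The 36 also hold combination calls of Ltf and Olfm4, which entered the test only through the combination. The rise of Ltf after the combination is 1 of the 27. No such share was computed over all genes, so these numbers are a description. The calls that an alternative ended are the interaction of Mmp8 and those calls of Mmp9, Ltf, Ngp, Cd177, Lyz2 and Olfm4 whose losses stand beside their values. Losses with the replicate block stand below. The causes were not tested. The number of the 10 genes past the interaction test (main value 1) was 0 with no filter, 0 with quantile normalisation, 0 with the replicate block, 3 with the GC trend removed, 3 with the replicate block and the GC trend removed, 3 without both of ruxolitinib replicate 2 and combination replicate 3, and 0 to 2 with any 1 library left out. For GSK-LSD1 minus ruxolitinib the number was 5 with quantile normalisation (main value 3). With 1 library left out it ranged from 1 to 4 after ruxolitinib (main value 3; 1 without DMSO replicate 3) and from 2 to 4 after GSK-LSD1 (main value 4; 2 without DMSO replicate 2 or GSK-LSD1 replicate 1).

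Some values near 0, none past the test, changed sign. Mmp9 after ruxolitinib (-0.01) was 0.00955 with upper-quartile scaling, 7e-06 without ruxolitinib replicate 2 (the same without combination replicate 3 as well), 0.221 without DMSO replicate 1 and 0.154 without ruxolitinib replicate 1, and with any 1 library left out it ranged from -0.195 to 0.221. Ltf after GSK-LSD1 (0.26) was -0.423 with quantile normalisation, -0.11 without DMSO replicate 3 and -0.0317 without GSK-LSD1 replicate 1 (range with 1 library left out -0.11 to 0.554). Ngp in the combination minus ruxolitinib (-0.04) was 0.0906 without both libraries, 0.173 without ruxolitinib replicate 2 and 0.0611 without combination replicate 2 (range -0.212 to 0.173). Lyz2 in GSK-LSD1 minus ruxolitinib (0.05) was -0.0219 without ruxolitinib replicate 3 (range -0.0219 to 0.11), and Prss57 after GSK-LSD1 was 0.0135 without DMSO replicate 1 (range -0.162 to 0.0135).

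Same-numbered libraries did not deviate together: 1 of 18 correlations was over 0.1 (range -0.148 to 0.15), and a library correlated best with its own number in 12 of 36 cases, so the numbers were not taken as pairs. With the replicate block Mmp8 had an interaction adjusted p of 0.0783, Mmp9 an adjusted p of 0.0532 after the combination (0.0501 with the GC trend removed as well), and Cebpe one of 0.0535 after GSK-LSD1. The block moved the count of all genes after ruxolitinib from 187 to 112, and that of the interaction from 1 to 0.

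Over all genes, the count after ruxolitinib (187) was 98 with no filter, 82 with only the groups compared, 317 without both libraries, and 32 to 551 with any 1 library left out. That of adding ruxolitinib to GSK-LSD1 (161) was 286 with the GC trend removed, 270 without both libraries and as low as 83 without GSK-LSD1 replicate 2. At levels of a few reads, as for Ltf and Olfm4, counting error limits the precision.

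The split of these counts moved with the scaling. After ruxolitinib 115 genes were higher and 72 lower, against 122 and 127 with the GC trend removed and 170 and 56 with upper-quartile scaling. With upper-quartile scaling the balance after the combination turned, from 2356 higher and 2503 lower to 2733 and 1994, and that after GSK-LSD1 moved from 1948 and 1780 to 2122 and 1461. For adding ruxolitinib to GSK-LSD1, 121 were higher and 40 lower, against 179 and 107 with the GC trend removed.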
